A study of Drosophila melanogaster with 6 samples.

Results

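The 9 genes described here encode secretion proteins of the larval salivary gland of Drosophila melanogaster: the new glue genes ng1, ng2, ng3 and ng4, and the salivary gland secretion genes Sgs3, Sgs4, Sgs5, Sgs7 and Sgs8. They were taken by symbol from 11983 genes, each with a probe set that names exactly 1 gene. The list was chosen by symbol with their log2 values on these 6 arrays known, both between genotypes and between replicate numbers, so their levels and differences are given as a description. RNA came from whole 1st instar larvae, 200 per replicate, raised at 25 °C and collected at 48 after egg laying, a time that the labels give with no unit. The mutant larvae carried the insertion dKDM4A KG04636 over the deletion ∆dKDM4A, and the control larvae carried dKDM4A precise KG06436 over dKDM4A precise NP0618, a pair of alleles that the labels call precise, a usual word for a clean excision of an insertion. KG04636 and KG06436 differ in number, and whether they are the same insertion was not settled here. Each genotype had 3 Affymetrix arrays, labelled as biological replicates 1 to 3. The design compares control larvae with larvae mutant for Kdm4A, the gene of a JmjC histone demethylase. Kdm4A itself had log2 values of 3.44, 3.41 and 3.29 in the mutant, against 5.18, 5.26 and 5.46 in the control, a difference of -1.92 (SE 0.10, limma adjusted p = 0.00174). Whether its probe set lies in the deleted part was not settled here. No cell type was isolated, so fewer salivary gland cells and less RNA per cell cannot be told apart.

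Glue is a mixture of secreted, mostly mucin-like and cysteine-rich proteins that the larval salivary glands store in granules and expel at puparium formation, where it fixes the pupal case to its support. The Sgs genes are known as genes of the third instar, turned on and later off by ecdysone acting through its receptor and the early genes, with the salivary gland transcription factor Fork head as a regulator. The new glue genes are neighbours of Sgs4 on the X chromosome and lie with it inside the span of dnc, the cAMP phosphodiesterase gene. In the NCBI table of Release 6 of the genome the order is ng2, ng3, ng1, ng4, Pig1, Sgs4. Sgs8, Sgs7 and Sgs3 form a second cluster on 3L, and Sgs5 lies on 3R beside its relative Sgs5bis.

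The 2 kinds of member differed in how far their values ranged. The new glue genes varied strongly, spanning 3.75 to 4.64 log2 units over the 6 arrays, while the 5 Sgs genes spanned 0.14 to 0.54. ng3 and ng4 lay above the array's median on all 6 arrays, and ng1 and ng2 on 5 of them, with control array 3 below it. Over all genes, 9.73% spanned at least 1 log2 unit. All values below are log2 expression values made by the authors with RMA, so 1 unit is a 2-fold change.

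ng3 had log2 values of 9.58, 9.17 and 7.21 in mutant arrays 1, 2 and 3, against 8.23, 7.81 and 5.58 in control arrays 1, 2 and 3. Each mutant array was above the control array of the same number, by 1.36, 1.36 and 1.63 log2 units, but mutant array 3 lay below control arrays 1 and 2, so the groups overlapped. The means were 8.65 ± 1.27 in the mutant and 7.21 ± 1.42 in the control (SD, n = 3 each), a log2 difference of 1.45 with an SE of 0.87, or 2.73-fold. Of the new glue genes it had the most even difference between same-numbered arrays.

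ng1 had log2 values of 9.55, 9.20 and 6.98 in mutant arrays 1, 2 and 3, against 8.96, 7.83 and 5.08 in control arrays 1, 2 and 3. The mutant was higher in all 3 pairs, by 0.59, 1.38 and 1.91, and the groups overlapped because mutant array 3 lay below control arrays 1 and 2. The means were 8.58 ± 1.39 in the mutant and 7.29 ± 2.00 in the control (SD, n = 3 each), a log2 difference of 1.29 with an SE of 1.10.

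ng2 had log2 values of 9.37, 9.32 and 7.42 in mutant arrays 1, 2 and 3, against 8.75, 9.03 and 4.72 in control arrays 1, 2 and 3. The mutant was again higher in all 3 pairs, but most of the mean difference came from arrays numbered 3, where it was 2.69, against 0.62 and 0.28 in arrays numbered 1 and 2. The means were 8.70 ± 1.11 in the mutant and 7.50 ± 2.41 in the control (SD, n = 3 each), a log2 difference of 1.20 with an SE of 1.20. Without control replicate 3 the difference of ng2 was -0.19, that of ng1 was 0.19 and that of ng3 was 0.63. That fit keeps mutant array 3, which was low too. Without both arrays numbered 3 the differences were 0.45 for ng2, 0.98 for ng1 and 1.36 for ng3.

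A further probe set, which the platform's probe table assigns to ng1 and ng2 together, was not among the members because it names 2 genes. It had log2 values of 10.30, 10.24 and 8.23 in mutant arrays 1, 2 and 3, against 9.57, 9.44 and 5.48 in control arrays 1, 2 and 3. The differences between same-numbered arrays were 0.72, 0.80 and 2.74, largest in arrays numbered 3 as for ng1 and ng2. A probe set shared by both genes shows that their transcripts are alike in part, so how far the separate probe sets of ng1 and ng2 read each other's RNA is uncertain.

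ng4 differed from its neighbours in its relation to genotype. Its log2 values were 7.98, 7.59 and 5.74 in mutant arrays 1, 2 and 3, against 9.49, 6.97 and 6.84 in control arrays 1, 2 and 3. The mutant was lower than the control in arrays numbered 1 and 3, by differences of -1.51 and -1.09, and higher in arrays numbered 2, by 0.61. The means were 7.10 ± 1.19 in the mutant and 7.77 ± 1.50 in the control (SD, n = 3 each), a log2 difference of -0.66 with an SE of 0.87. Without control replicate 1, whose value was the highest of the 6, the difference was 0.20. Without both arrays numbered 1 it was -0.24.

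**Figure D1:**
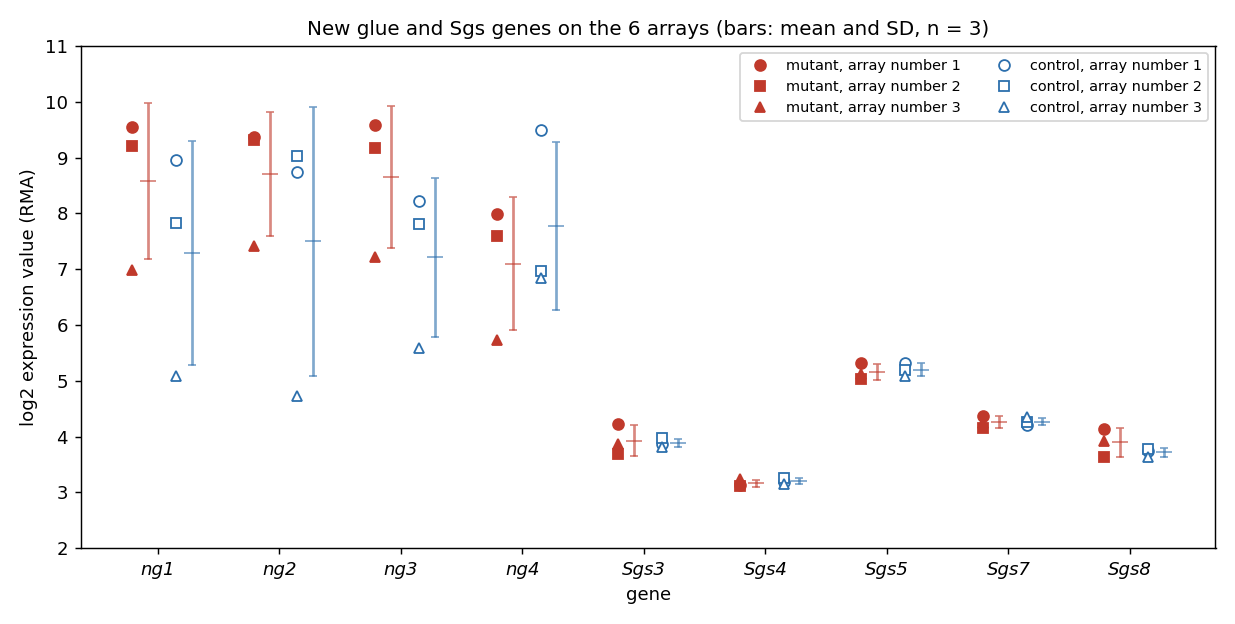
Log2 expression values (y axis) of the 9 members (x axis) on each array, with mutant arrays as filled red symbols left of control arrays as open blue symbols, the array number as the symbol's shape, and the mean and SD of the 3 arrays of a group beside them. The new glue genes span 3.75 to 4.64 log2 units with both arrays numbered 3 lowest in each gene, and the Sgs genes span 0.14 to 0.54.

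None of the 9 members was called between the genotypes by limma over all 11983 genes, where 0.159% of genes were called, and the adjusted p was 0.998 for each, with 0 of the 9 at an unadjusted p under 0.05, against 5.27% of all genes. None had groups that did not overlap, against 10.3% of all genes. ng1, ng2 and ng3 were higher in the mutant in all 3 pairs, as were 14.5% of all genes. With the replicate number as a block, limma called ng3 alone of the 9 (SE 0.09, adjusted p = 0.00789), where 0.818% of all genes were called in either direction and 0.292% higher in the mutant. In that fit 3 of the 4 new glue genes and 0 of the 5 Sgs genes had an unadjusted p under 0.05, against 11.2% of all genes. The blocked adjusted p was 0.111 for ng1, 0.43 for ng2 and 0.622 for ng4. Since the list was chosen with these values known, nothing is read from these counts.

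In the new glue genes the differences between arrays numbered 3 and 1 were larger than those between the genotypes. In all 4 genes both arrays numbered 3 lay below the other 4 arrays, a pattern that 12.6% of all genes showed. In a limma fit that also held genotype, arrays numbered 3 were lower than arrays numbered 1 by log2 differences of -3.23 for ng1 (SE 0.30), -2.99 for ng2 (SE 0.56), -2.51 for ng3 (SE 0.12) and -2.45 for ng4 (SE 0.49). These are 9.36-fold, 7.93-fold, 5.71-fold and 5.45-fold lower levels. The fit called all 4 genes lower and none of the Sgs genes in either direction, where 3.35% of all genes were called lower and 8.25% in either direction. At an unadjusted p under 0.05 were 4 of the 4 new glue genes, 0 of the 5 Sgs genes and 26.4% of all genes. The low values of ng1 and ng2 on control array 3, 5.08 and 4.72, were not tested against background. Without control replicate 1 the calls of ng2 and ng4 were lost, with differences of -2.55 and -1.81, and ng4 was also lost without mutant replicate 3 (-2.13) or control replicate 3 (-2.77) and ng2 without mutant replicate 1 (-3.42). With all arrays kept, a trended robust prior lost ng2 (limma adjusted p = 0.155) and ng4 (limma adjusted p = 0.164), and among the upper 60% of genes ng4 was lost (limma adjusted p = 0.0536).

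Arrays numbered 2 did not hold one place between the others. In the mutant, arrays 2 and 1 were close for all 4 genes, with log2 differences of array 2 minus array 1 from -0.41 for ng3 to -0.05 for ng2. In the control, the same difference was 0.28 for ng2, -0.42 for ng3, -1.13 for ng1 and -2.52 for ng4. ng4 in the control was thus low on control arrays 2 and 3, at 6.97 and 6.84, while for ng1, ng2 and ng3 control array 3 was lower than control array 2 by more than 2 log2 units. Over the 6 arrays Pearson's r was 0.979 between ng1 and ng3, 0.947 between ng1 and ng2 and 0.931 between ng2 and ng3, against 0.612, 0.435 and 0.481 between ng4 and ng1, ng2 and ng3. These values describe 6 arrays of 1 study that share their normalization, and the difference between replicate numbers weighs heavily in them.

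The measured genes around the cluster ranged over less than 1 log2 unit. CG14265, the nearest measured gene before ng2, had log2 values of 13.29, 12.97 and 13.00 in the mutant, against 12.72, 12.82 and 12.90 in the control. Pig1, a pre-intermoult salivary gland gene that lies between ng4 and Sgs4, had 11.57, 11.65 and 11.52 in the mutant, against 12.10, 11.67 and 11.39 in the control. Its difference between arrays numbered 3 and 1 was -0.38 (SE 0.17, limma adjusted p = 0.241), and its difference between the genotypes was -0.14 (SE 0.18, limma adjusted p = 0.998). The host gene dnc moved the other way from the new glue genes, with 8.43, 8.58 and 8.88 in the mutant, against 8.12, 8.50 and 8.81 in the control. It was higher in arrays numbered 3 than in arrays numbered 1 by 0.57 (SE 0.11, limma adjusted p = 0.0439). CG10793, the next measured gene after Sgs4, lay between 3.31 and 3.73 on all arrays.

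**Figure D2:**
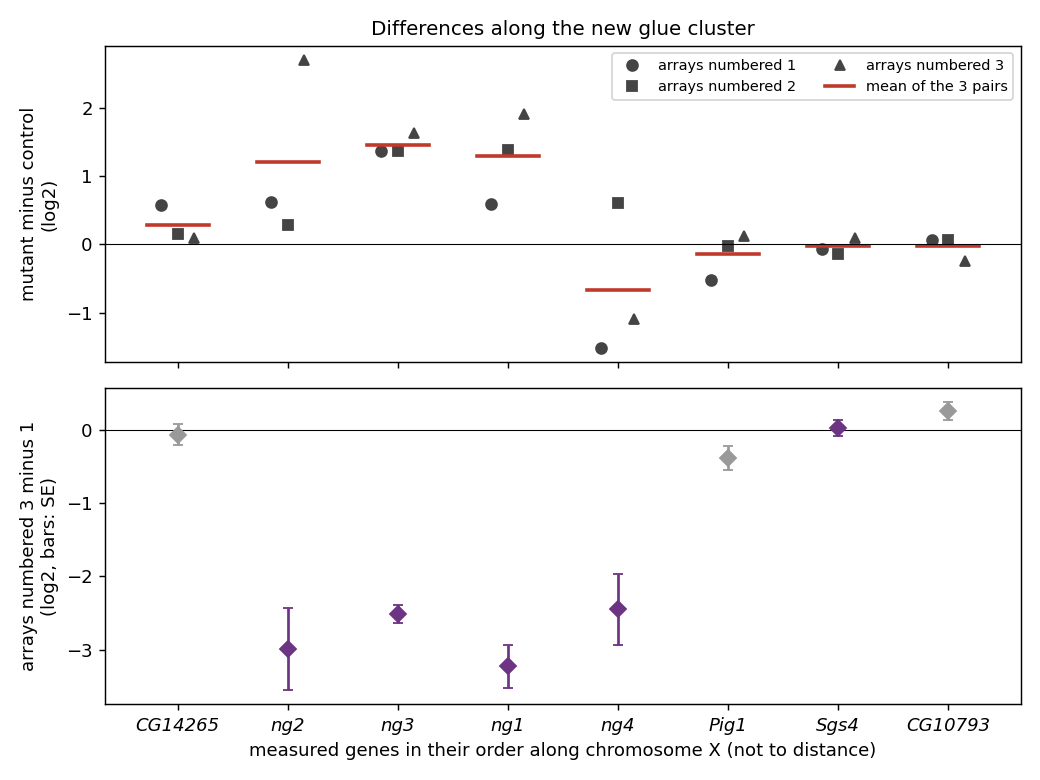
Log2 differences of the measured genes in their order along the X chromosome (x axis), mutant minus control in each pair of same-numbered arrays with the mean as a red line (upper plot), and arrays numbered 3 minus arrays numbered 1 with the SE of the limma fit with genotype in it (lower plot, members purple and neighbours grey). ng2, ng3 and ng1 are above 0 in each pair and ng4 in 1 of 3 pairs, and the 4 new glue genes lie between -3.23 and -2.45 in the lower plot while Pig1 lies at -0.38 and Sgs4 at 0.03.

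The Sgs genes, whose products make up most of the glue of the third instar, were dim and nearly flat in these 1st instar larvae. Sgs4, the neighbour of Pig1, had log2 values of 3.13, 3.11 and 3.24 in the mutant, against 3.19, 3.25 and 3.15 in the control. These lay below the lower quartile of the array's probe sets on all 6 arrays, where the lower quartiles were 3.70 to 3.80. The difference was -0.03 (SE 0.08). The values were not tested against background, so a change in a transcript near the lower end of the scale may not be visible.

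In the cluster on 3L, Sgs3 had log2 values of 4.23, 3.69 and 3.87 in the mutant, against 3.86, 3.97 and 3.82 in the control. Sgs7 had 4.37, 4.15 and 4.25 in the mutant, against 4.20, 4.26 and 4.35 in the control. Sgs8 had 4.13, 3.63 and 3.93 in the mutant, against 3.75, 3.77 and 3.63 in the control. All 3 genes lay below the array's median on all 6 arrays, their groups overlapped, and mutant array 1 held the highest value of each. Mutant minus control was 0.05 for Sgs3 (SE 0.15), -0.01 for Sgs7 (SE 0.10) and 0.18 for Sgs8 (SE 0.14). CG33272, which lies between Sgs7 and Sgs3, was measured between 6.79 and 8.37 and differed by -0.17 between the genotypes (SE 0.39, limma adjusted p = 0.998).

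Sgs5 had the highest values of the Sgs probe sets, 5.32, 5.03 and 5.13 in the mutant, against 5.32, 5.20 and 5.09 in the control, near the arrays' medians of 5.30 to 5.38. Its difference was -0.04 (SE 0.11). Between arrays numbered 3 and 1 the differences of the 5 Sgs genes ran from -0.21 for Sgs5 (SE 0.10) to 0.03 for Sgs4 (SE 0.11). Sgs5bis, its neighbour, had 3.79, 3.92 and 3.97 in the mutant, against 4.20, 4.17 and 3.78 in the control, with a difference of -0.16 (SE 0.14, limma adjusted p = 0.998).

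Other secretion genes of the gland differed little in these arrays, where most of them were dim. Of 13 listed, 11 were measured: Sgs1, the gene of another large glue protein, Pig1, and 9 Eig71E genes, a cluster of ecdysone-induced genes of the late larval and prepupal gland. By limma 0 of the 11 were called between the genotypes, with or without the block, and 0 between arrays numbered 3 and 1, with 0 at an unadjusted p under 0.05 in each of these fits, against 5.27% of all genes, 11.2% with the block and 26.4% between arrays numbered 3 and 1. Their log2 differences between the genotypes lay between -0.14 and 0.00, with a median of -0.05 against -0.01 over all genes. Between arrays numbered 3 and 1 they lay between -0.38 and 0.10, with a median of -0.04 against 0.03 over all genes. Sgs1 had 3.86, 3.77 and 3.90 in the mutant, against 3.91, 3.83 and 3.79 in the control. Apart from Pig1 and Eig71Ee, the measured genes of this list lay near or below the arrays' lower quartiles of 3.70 to 3.80. A change in such dim genes may not be visible.

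Genes that mark the salivary gland or act in its secretory route were measured in both genotypes. fkh, the gene of Fork head, had 7.04, 7.33 and 7.38 in the mutant, against 7.27, 7.54 and 7.53 in the control. The prolyl 4-hydroxylase gene PH4alphaSG1 had 7.04, 6.86 and 7.0 in the mutant, against 6.87, 7.01 and 6.97 in the control. PH4alphaSG2, of the same enzyme family, had 7.97, 7.91 and 8.07 in the mutant, against 7.86, 8.10 and 7.90 in the control. Over the 6 arrays PH4alphaSG1 spanned 0.18 and PH4alphaSG2 spanned 0.24 log2 units. Between arrays numbered 3 and 1 PH4alphaSG1 differed by 0.03 (SE 0.12), PH4alphaSG2 by 0.07 (SE 0.12) and fkh by 0.31 (SE 0.10, limma adjusted p = 0.118).

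**Figure D3:**
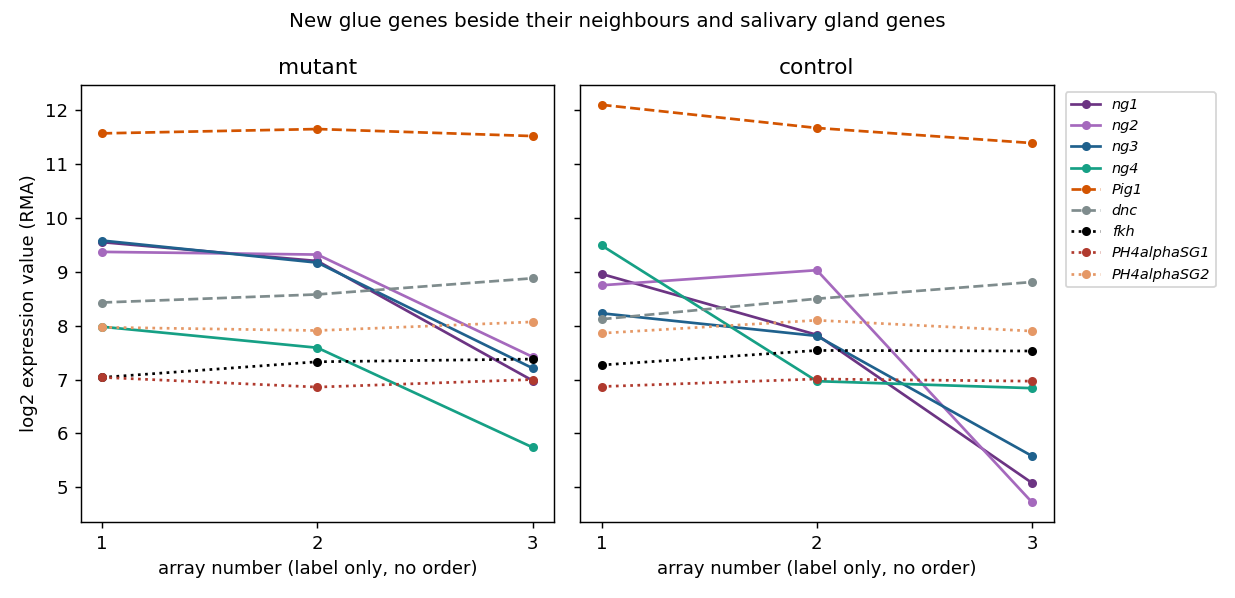
Log2 expression values (y axis) on arrays 1, 2 and 3 (x axis, a label with no order) of the mutant (left plot) and the control (right plot), for the new glue genes (solid lines), their neighbours Pig1 and dnc (dashed) and the salivary gland genes fkh, PH4alphaSG1 and PH4alphaSG2 (dotted). On array 3 the new glue genes lie at 5.74 to 7.42 in the mutant and at 4.72 to 6.84 in the control. Each lies there below its own values on arrays 1 and 2, while the other genes shown vary by less than 1 log2 unit. The gland genes shown are a part of the 8 gland markers measured. Of those not shown, rib spanned 2.05 and hkb 0.78 log2 units, both highest on array 3 in each genotype. The rest spanned 0.17 to 0.58.

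Of 7 salivary gland transcription factor genes measured of 10 listed, limma called 0 between the genotypes, against 0.159% of all genes. At an unadjusted p under 0.05 were 0, and 1 with the block, against 5.27% and 11.2% of all genes. Between arrays numbered 3 and 1, 4 had an unadjusted p under 0.05, against 26.4% of all genes. By limma 1 was called higher in arrays numbered 3 than in arrays numbered 1. Of all 11983 genes 588 were called higher, and 8.25% in either direction. The gene called was hkb, a factor of gland invagination in the embryo, with a difference of 0.60 (SE 0.11, limma adjusted p = 0.0385). hkb was dim, with 3.74, 3.79 and 4.24 in the mutant, against 3.46, 3.72 and 4.17 in the control. The arrays' lower quartiles were 3.70 to 3.80, and these values were not tested against background. rib, the gene of the Ribbon transcription factor, had a larger difference that was not called, 1.42 (SE 0.32, limma adjusted p = 0.0593). It had 8.38, 8.09 and 9.17 in the mutant, against 7.40, 8.38 and 9.46 in the control. sens, the gene of the zinc finger factor Senseless, differed by -0.27 (SE 0.10, limma adjusted p = 0.152). It was dim too, with 3.61, 3.52 and 3.38 in the mutant, against 3.85, 3.72 and 3.54 in the control. sage, a gland-specific partner of Fork head, had 6.21, 5.63 and 5.93 in the mutant, against 6.02, 6.03 and 6.09 in the control. Of 6 measured genes of gland enzymes and the secretory route, of 7 listed, limma called 0 in either comparison, with 1 between the genotypes and 2 between arrays numbered 3 and 1 at an unadjusted p under 0.05, where the shares of all genes were 5.27% and 26.4%. Their genotype differences ran from -0.50 to 0.05, the lowest being that of pip, a sulfotransferase gene (SE 0.17, limma adjusted p = 0.763).

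Ecdysone response genes were listed because ecdysone controls the glue genes later in larval life. Of 11 listed, 9 were measured. By limma 0 were called between the genotypes, with 1 at an unadjusted p under 0.05, against 5.27% of all genes. Between arrays numbered 3 and 1, 4 had an unadjusted p under 0.05, against 26.4% of all genes. By limma 2 were called higher in arrays numbered 3 than in arrays numbered 1. Over all 11983 genes 588 were called higher, and 8.25% were called in either direction. br, the Broad transcription factor gene that is required for glue gene expression in the third instar, had 7.02, 6.94 and 7.77 in the mutant, against 6.56, 7.18 and 7.73 in the control. Its difference between arrays numbered 3 and 1 was 0.96 (SE 0.18, limma adjusted p = 0.0402). ftz-f1, the gene of a nuclear receptor that acts between ecdysone pulses, differed by 0.66 (SE 0.10, limma adjusted p = 0.0304). Both were thus higher on the arrays where the new glue genes were low. EcR, the ecdysone receptor gene, differed by 0.00 (SE 0.10), and Hr4, a nuclear receptor gene, by -1.42 (SE 0.33, limma adjusted p = 0.0638). Hr4 had 5.06, 4.82 and 4.40 in the mutant, against 6.96, 6.02 and 4.79 in the control, a genotype difference of -1.16 (SE 0.52, limma adjusted p = 0.966).

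The fat body genes Lsp2, Fbp1 and Fbp2, which are expressed in the third instar, lay between 3.76 and 5.28 on all arrays. By limma 0 were called in either comparison. At an unadjusted p under 0.05 were 0, against 5.27% of all genes between the genotypes and 26.4% between arrays numbered 3 and 1.

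Measures of RNA quality and of other cell types moved with the replicate number too. The gap between the 3′ and 5′ probe sets of the actin control was 2.39, 1.53 and 1.63 in the mutant, against 2.34, 1.84 and 1.61 in the control. It was highest on array 1 in both genotypes. Over all 11983 genes, limma called 588 higher in arrays numbered 3 than in arrays numbered 1, and 8.25% in either direction. An unadjusted p under 0.05 was found for 26.4%. Of 6 neuron markers measured, 3 were called higher in arrays numbered 3 than in arrays numbered 1, with 5 at an unadjusted p under 0.05. Their summed level ran from 10.34 to 10.99 in the mutant and from 9.97 to 10.85 in the control, as log2 of the sum. Of 8 salivary gland markers measured, hkb alone was called, with 4 at an unadjusted p under 0.05, and the summed level ran from 9.81 to 10.30 in the mutant and from 9.63 to 10.43 in the control. In both genotypes this sum was highest on array 3, where rib was also highest. The sum without rib, left out after its values were seen, was 9.33, 9.28 and 9.42 in the mutant, against 9.28, 9.48 and 9.40 in the control, so the control was then highest on array 2. The summed level of the new glue genes was lowest on array 3 in both genotypes, 8.96 in the mutant and 7.80 in the control. Of 6 hemocyte markers, PPO1 alone was called, with a difference of -0.57 (SE 0.12, limma adjusted p = 0.0493), with sums of 10.79 to 11.15 in the mutant and 10.72 to 11.09 in the control. Of 3 muscle and 4 gut markers limma called 0 between arrays numbered 3 and 1, with 1 of each at an unadjusted p under 0.05 and sums of 14.12 to 14.15 and 14.70 to 14.77 in the mutant and 13.85 to 14.28 and 14.79 to 15.09 in the control. The markers were not tested against background. Of them, sens, hkb and VGlut were dim, at 3.38 to 4.24, where the arrays' lower quartiles were 3.70 to 3.80. The part of these measures in the values of the new glue genes was not tested.

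The genes whose pattern over the 6 arrays was most like that of the new glue genes were sought among 1162 other genes that spanned at least 1 log2 unit. The highest Pearson correlations with the mean centred profile of ng1, ng2, ng3 and ng4 were those of CG13040 and ssp7 (0.985 each), CG13063 (0.983), Cpr50Cb (0.981) and CG9192 (0.979), each over 6 arrays. CG13040 had 11.41, 11.25 and 9.12 in the mutant, against 11.75, 10.14 and 8.11 in the control. Cpr50Cb, a cuticle protein gene of the chitin-binding Cpr family, had 8.36, 8.44 and 6.80 in the mutant, against 8.55, 7.16 and 5.27 in the control. Both were low on arrays numbered 3 in both genotypes. All 5 genes were called lower by limma in arrays numbered 3 than in arrays numbered 1, by log2 differences from -2.97 for CG13040 to -0.91 for ssp7, which their choice by this profile favours.

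The profile of the Sgs genes varied by at most 0.17 log2 units from its mean, on mutant array 1. The highest correlations with it among the same 1162 genes were those of BomS6, a Bomanin immune peptide gene (0.885), CG13947 (0.871) and CG13946 (0.765), each over 6 arrays. Muc91C, a mucin gene, and CG13048 followed with 0.578 and 0.573. BomS6 had 6.35, 4.83 and 5.82 in the mutant, against 5.31, 5.21 and 4.64 in the control, and was likewise highest on mutant array 1. The Sgs genes were dim and did not all share the mean profile. Pearson's r of Sgs4 with Sgs3, Sgs5, Sgs7 and Sgs8 was 0.048, 0.171, -0.059 and 0.118. The other pairs of Sgs genes had 0.301 to 0.874.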

How the data were processed

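Total RNA of whole larvae was hybridised to Affymetrix arrays. The authors summarised each probe set with RMA and deposited log2 values, per the submitters' processing notes. No version of RMA is stated there, and the log2 scale was read from the range of the values. RMA equalises the arrays and so hides changes common to most genes. Of 18952 probe sets, 183 controls were left out, and 13647 name 1 gene in the platform's table of 2016. The probe set with the highest mean stood for each of 11983 genes, of which 99.3% matched the NCBI table of Release 6, used for names, arms and gene order. Every member had 1 such probe set. The number of arrays limits the precision.

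Genotypes were compared with limma 3.58.1 under R 4.3.3, by lmFit and eBayes, two-sided. P-values were adjusted by Benjamini-Hochberg over the 11983 genes, and a call is an adjusted p under 0.05. Replicate numbers were compared in a fit with genotype as a term. Deviations from group means correlated between same-numbered arrays at 0.684, 0.151 and 0.756. Mutant array 2 correlated more with control array 1, at 0.354. Control array 2 correlated most with mutant array 2, against -0.045 and -0.064 with mutant arrays 1 and 3. These values are thus mixed on the pairing of arrays numbered 2. The titles' numbers were taken to pair the arrays, although the labels do not say what they mark. Named genes were the members, the listed pathway and marker genes, Kdm4A, dnc, the nearest measured neighbours and the 5 most similar patterns per kind of member. Members and lists were chosen with earlier results of these data known. The fits were tested on simulated data with normal noise. There same-numbered arrays shared an effect by construction, so that test cannot bear on the pairing. Plots used matplotlib 3.10.9.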

Additional observations from a re-analysis of the deposited data

How the results depend on the processing

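Between the genotypes, 19 genes were called, and 98 with the replicate block, 82 with array weights (statmod 1.5.0), 35 over all probe sets and 11 among the upper 60% of genes, where the number tested differs. Leaving out 1 array, or both arrays of a number, gave 0 to 26. Of the members 0 were called, and 1, ng3, with the replicate block. In fits added after seeing the data, the block without both arrays numbered 1, 2 or 3 called 89, 110 and 23 genes. It called 2 members (ng1 and ng3), 2 members (ng3 higher and ng4 lower) and 1 member (ng3), on 1 residual degree of freedom per gene. Without the block 0 members were called under any alternative. The genotype difference of ng3 was 0.63 to 2.17 over 20 alternatives, and that of ng1 was 0.19 to 2.13. That of ng2 was -0.19 to 1.96 and that of ng4 -1.30 to 0.20. Between arrays numbered 3 and 1, 989 genes were called, and 60 to 1257 with arrays left out: 139 without mutant replicate 3, 126 without control replicate 1 and 60 without control replicate 3. The members called were 4, with 2 under the trended robust prior, where ng2 and ng4 were lost, and 2 to 4 with arrays left out. Among the upper 60% of genes, which holds none of the 5 Sgs genes, ng4 was lost (adjusted p = 0.0536). ng1 and ng3 were called under each alternative of that comparison that kept all arrays. Over its 14 alternatives their differences were -3.75 to -2.70 and -2.65 to -2.38. These are not 14 separate checks. The fits without mutant array 2, without control array 2 and without both gave the same values, since a lone array of a number is fitted exactly. Averaging over probe sets cannot alter the values of members with 1 each. In the comparison of arrays numbered 3 and 1, fits with arrays left out had 1 residual degree of freedom per gene. The actin gap differed by -0.08 between the genotypes, and the GAPDH and eIF4a gaps by -0.04 and -0.07. Beyond the numbers of genes or arrays in a fit, the cause was not tested. Values near the lower end of the scale limit what the arrays show of the Sgs genes.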
